A study of Mus musculus with 60 samples.

Results

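The genes described here encode the subunits of the nuclear RNA polymerases and of Mediator. They were chosen by name: every row of the count table whose Ensembl transcript maps in GENCODE M21 to a mouse symbol of the form Polr1, Polr2 or Polr3 plus letters, or Med plus a number with or without a final l. The rule found 58 genes of the 27665 rows, 28 polymerase genes and 30 Mediator genes, and all 58 passed the filter on low counts in every comparison. The name rule itself uses no measured value. Pol I subunits with other symbols, and the kinases and cyclin of the Mediator kinase module, stood outside the rule and are counted below among related genes.

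RNA polymerase I transcribes the large ribosomal RNA genes, RNA polymerase II the protein-coding genes, and RNA polymerase III the tRNA, 5S and other short RNA genes. The enzymes are built on related cores: some subunits are shared by all of them, some by Pol I and Pol III, and others belong to a single enzyme. Mediator is the large complex that carries signals from enhancer-bound factors to Pol II. Its head, middle and tail modules form the core, and a detachable kinase module with MED12 and MED13 binds it reversibly. These genes are expressed in practically all cells.

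Nascent RNA was measured by EU-seq, in which cells take up the uridine analogue 5-ethynyluridine (0.5 mM for 20 min), and the labelled RNA is captured and sequenced, in 60 libraries of 20 groups. Titles call the untagged-by-treatment groups only control, and the EU-seq methods name DMSO as the alternative to the compounds. In CTCF-AID mouse embryonic stem cells (mESCs), GFP-AID-tagged CTCF was kept in controls or depleted with the auxin IAA (500 µM) for 6 h. Each condition had 2 unstranded and 2 stranded libraries. In CTCF YF-AA mESCs, both Ctcf alleles carried GFP-FKBP12F36V and the Y226A and F228A changes, which abolish cohesin loops anchored at CTCF. These cells, controls included, therefore lacked unmutated CTCF, and dTAG13 (200 nM for 2 or 4 h) removed the mutant protein (2 libraries per group). In ΔN/ΔC mESCs, 1 Ctcf allele encoded CTCF without its N-terminal region and carried BromoTag (bTAG), and the other encoded CTCF without its C-terminal region and carried dTAG. AGB1 (100 nM, 2 h) removes the ΔN protein and leaves ΔC, dTAG13 (100 nM, 2 h) removes ΔC and leaves ΔN, and the combination removes both (2 stranded libraries per group, 2 control libraries shared by all 3 comparisons). These doses are those of the titles, and the count table's headers give 200 nM for dTAG13 in this line. In RAD21-AID mESCs, the cohesin subunit RAD21 carried GFP-AID and was depleted with IAA for 4 h, in a first experiment of 2 against 2 libraries and in a further set of 12 against 12. RAD21-AID neural progenitor cells (NPCs), differentiated from the RAD21-AID mESCs, received IAA for 1, 2 or 4 h or A-485 (10 µM, 1 h), which blocks the catalytic activity of the coactivators CBP and p300, with 2 libraries per group and the same 2 control libraries throughout. Controls of every line carried the same tagged alleles as the treated cells. The edited CTCF lines were grown from single picked colonies, and the YF-AA and ΔN/ΔC lines grew more slowly. CTCF was not depleted in NPCs. None of the 60 libraries came from mESCs with A-485, for which the paper used earlier data not analysed here. For IAA 1 h and A-485, and for the NPC controls set against them, reads were counted in the first 90 kb of each gene only, which shortens 5 of the 58 genes.

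Libraries held 4027449 to 21898781 counted reads (median 14088549). Replicates of every group differed by more than sampling noise, and the stranded CTCF-AID pairs stood furthest apart. The study calls the replicates of its CTCF depletion EU-seq biological. For the other groups nothing says that replicates came from separate cultures, so p-values there measure the spread between these libraries, which may be technical. The treatment text of the 18 CTCF-AID, YF-AA and first RAD21-AID libraries mentions the transcription inhibitor triptolide, which none of their titles name, and they were taken as titled. Most marker genes fitted the labels. Nanog reached 825 to 1890 TPM (a library-scaled read density per gene-body length) across mESC libraries, and in NPCs Fabp7, Olig2, Sox1 and Nes were high. Of the same NPC list, Pax6 (6.59 to 9.49 TPM) and Hes5 (3.92 to 27.4 TPM) were low in the NPC libraries counted over whole genes. The pluripotency genes were low there, with Klf4 the highest at 17.7 to 30.8 TPM. A degron removes protein and not RNA, so the tagged gene itself does not check the labels. Nascent Ctcf RNA differed from control by log2 -0.04 to 0.05 in the 6 CTCF comparisons, and nascent Rad21 RNA by -0.01 after 4 h of IAA in mESCs and by 0.10 in NPCs.

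Levels below are normalized CPM (counts scaled to library size) of single libraries, and changes are log2 fold changes of treated over control from edgeR's quasi-likelihood test, with the standard error (SE) or 95% interval. A gene is called where the p-value adjusted over all genes tested is under 0.05 and the change is at least 1.3-fold. Levels of different genes are compared only in TPM, which divides by gene-body length.

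Per length, members differed widely in level. In the 12 control libraries of RAD21-AID mESCs, Polr2a, the largest Pol II subunit, had 312 ± 15.4 TPM (SD, n = 12), Polr2m, which encodes the Pol II-binding factor Gdown1, 246 ± 8.24, and Polr1c, shared by Pol I and Pol III, 231 ± 6.88. Med12l, the paralogue of Med12 in the kinase module, was the lowest at 1.64 ± 0.116 TPM, and Polr3gl was next at 7.81 ± 0.994. The order of the Pol III paralogues POLR3G and POLR3GL, which occupy the same place in the enzyme, turned between the cell types. Polr3g had 38.6 ± 2.34 TPM in the mESC controls and 9.85 ± 0.483 (n = 2) in the NPC controls, whereas Polr3gl had 7.81 and 23.3 ± 2.7 TPM. Polr3b, the second largest Pol III subunit, had 37.7 ± 2.16 and 13.3 ± 0.868 TPM, and Polr1b, the second largest Pol I subunit, 105 ± 5.51 and 24.4 ± 1.69 TPM. Library names of the NPC and mESC sets carry different codes of unstated meaning, and no test of level was run between the cell types.

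**Figure D1:**
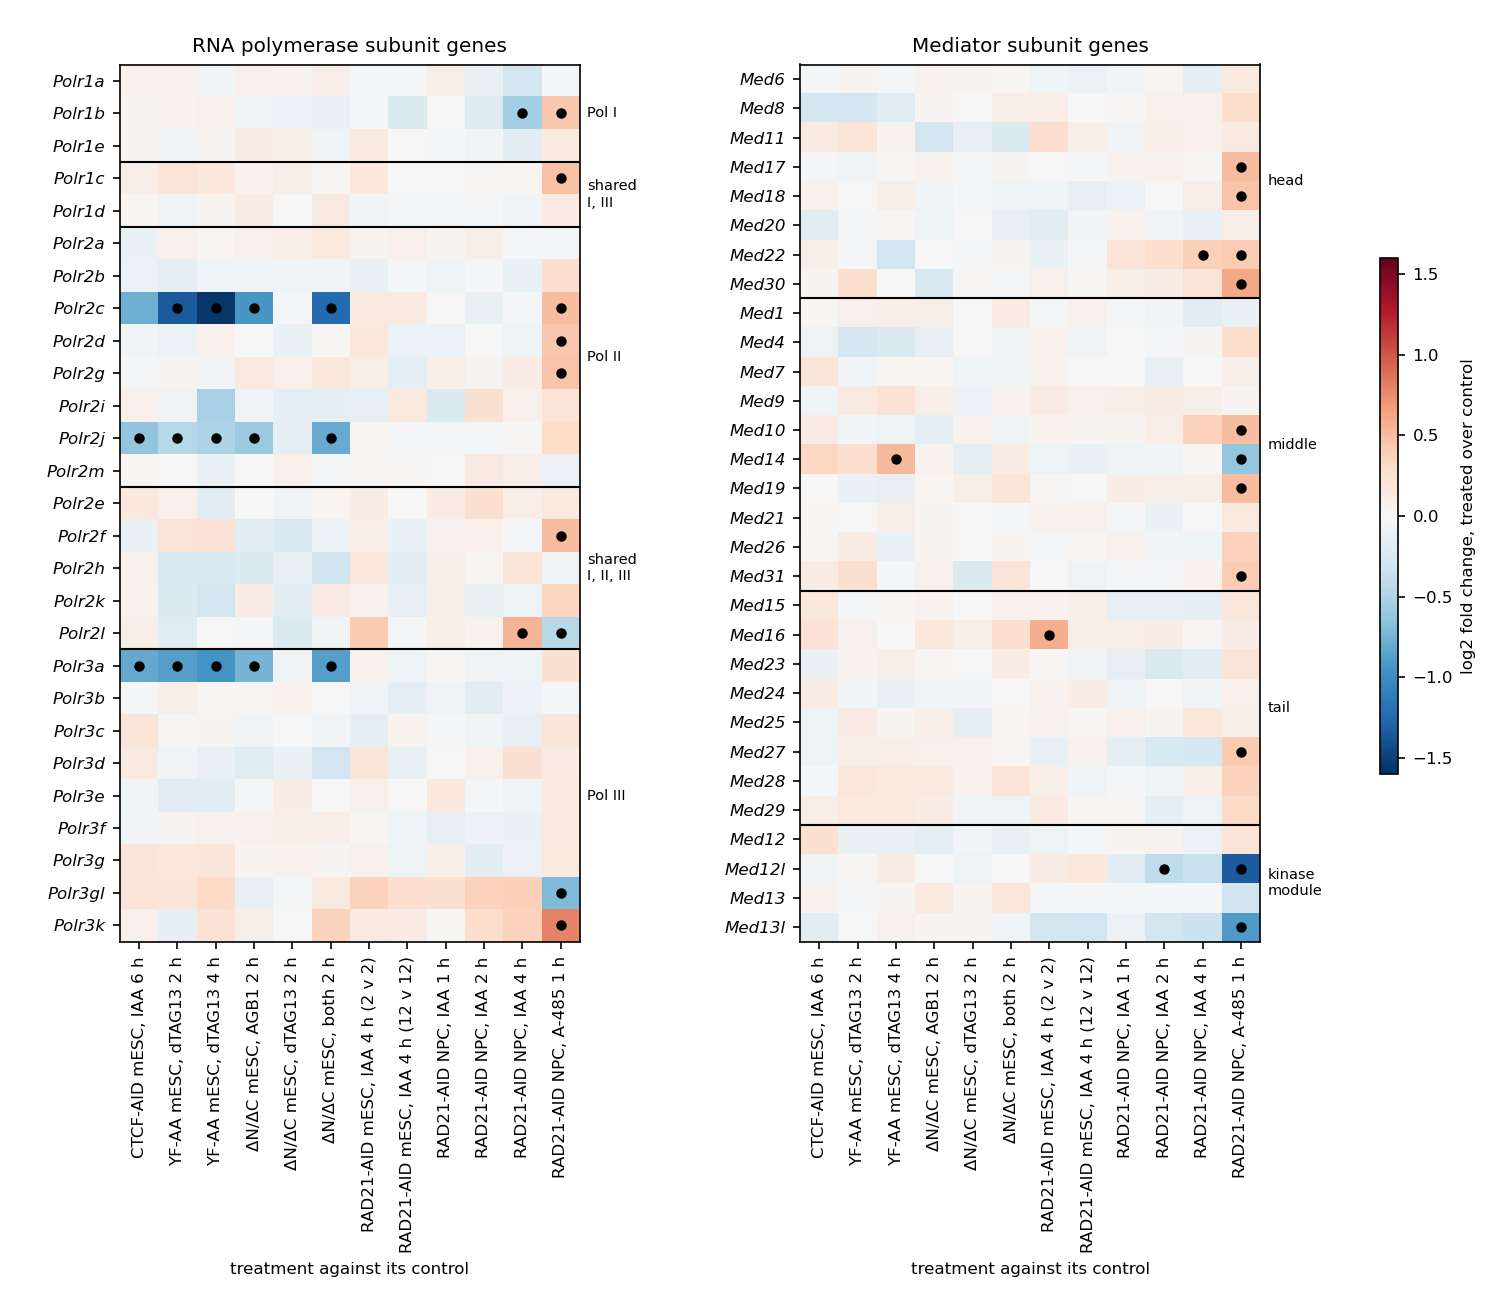
Log2 fold change of the polymerase and Mediator genes reported by name (rows, by role) in the 12 comparisons of treated with control libraries (columns), with a dot where the gene was called. Dots in the CTCF columns fall on Polr2c, Polr2j and Polr3a and, in YF-AA at 4 h, on Med14, while the A-485 column holds 20 dots.

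Loss of CTCF lowered 3 members, Polr2c and Polr2j, which encode the Pol II subunits RPB3 and RPB11, and Polr3a, which encodes the largest, catalytic subunit of Pol III. RPB3 and RPB11 bind each other as the platform on which Pol II is assembled. In YF-AA cells at 2 h these 3 were called lower and 0 members higher, while 1.91% of 14009 genes passed as lower and 0.799% as higher. At 4 h the same 3 were lower and Med14 was higher (2.29% and 1.04% of 14280 genes). In CTCF-AID cells at 6 h, in the fit without pairing, Polr2j and Polr3a were called lower and no member higher (1.69% and 1.72% of 15611 genes). Polr2c missed the threshold there. With the replicate number as a block, which pairs libraries that deviated together, these 3 were called lower and no member higher. That is 5.17% of members lower, near the 4.91% of all genes, while 9.43% of all genes were higher. The medians over the 58 genes were 0.01, 0.02 and 0.04 in these comparisons, against 0.01, 0.01 and 0.02 over all genes tested. Summed mESC markers were 6450 to 6560 TPM in YF-AA controls, 5810 to 5830 TPM at 2 h and 5760 to 5940 TPM at 4 h. Here and below these sums take every row of the listed symbols, 7 rows for the 6 mESC genes. Summed mesoderm and endoderm markers were 15.9 to 20.2 TPM in unstranded CTCF-AID controls and 32.1 to 39.6 TPM with IAA, and 11.9 to 20.3 and 18.7 to 33.8 TPM in the stranded libraries. The part of these shifts in the members' values was not tested. In bulk samples, fewer cells of a type and less RNA per cell cannot be told apart.

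The promoters of Polr2c and Polr2j are printed because their transcription moved with CTCF, a factor that binds DNA at a long motif. Both are RefSeq sequences of GRCm38.p6 on the plus strand, from 250 bases before to 50 after the RefSeq start, chr8:94857200-94857499 for Polr2c and chr5:136116441-136116740 for Polr2j. Capitals mark matches, on either strand, to a short form of the CTCF core motif, with at most 1 mismatch. The form reads CCA, 2 free bases, AG, 2 free bases, GGC.
Polr2c: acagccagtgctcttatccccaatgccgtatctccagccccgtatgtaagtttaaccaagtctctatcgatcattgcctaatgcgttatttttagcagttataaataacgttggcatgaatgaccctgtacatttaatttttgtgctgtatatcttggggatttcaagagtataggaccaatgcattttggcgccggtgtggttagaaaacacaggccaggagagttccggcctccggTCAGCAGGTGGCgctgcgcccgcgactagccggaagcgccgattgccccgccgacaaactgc
Polr2j: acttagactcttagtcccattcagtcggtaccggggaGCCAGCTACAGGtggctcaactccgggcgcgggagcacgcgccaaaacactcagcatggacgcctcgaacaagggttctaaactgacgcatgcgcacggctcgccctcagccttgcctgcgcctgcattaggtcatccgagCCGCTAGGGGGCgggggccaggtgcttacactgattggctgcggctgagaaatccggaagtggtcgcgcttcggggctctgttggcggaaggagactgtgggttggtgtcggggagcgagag
Counted from the RefSeq start, the match in Polr2c ran from -12 to -1 on the gene's strand. Polr2j held a match on its own strand, from -72 to -61, and another on the other strand, from -213 to -202. The form with 1 mismatch is loose: 10062 of 32851 promoters (30.6%) held it, and 19 of the 48 members with a promoter in the table. The motif without mismatch stood in 797 promoters (2.43%) and in 0 of the 48. A match by itself describes letters and not binding. The paper tested the Polr2c promoter in luciferase reporters, with a putative CTCF motif marked at the place of this match. It reports lower activity of this promoter on depletion of YF-AA CTCF and on mutation of the motif. Polr2j was not among the promoters of that assay. The RefSeq start lay at -68 from the start of the transcript counted for Polr2c and at 60 from that for Polr2j.

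Polr2c (chromosome 8, 94857518 to 94873535 in mm10, plus strand, 10 exons) had the largest fall. In YF-AA cells its level was 58.3 and 57.6 CPM in the controls, 22.7 and 23 CPM after 2 h of dTAG13, and 20.4 and 19 CPM after 4 h. The treated libraries were all far below the controls and close to each other. Treated libraries lay below the controls, by any margin, for 20% of all genes at 2 h and 20.8% at 4 h. Polr2c fell 2.53-fold at 2 h (log2 -1.34, SE 0.14, adjusted p = 1.65e-20) and 2.95-fold at 4 h (log2 -1.56, SE 0.12, adjusted p = 9.15e-15). In CTCF-AID cells the unstranded libraries had 75.8 and 82.9 CPM in controls and 47.4 and 53.1 CPM with IAA, and the stranded ones 82.2 and 50 CPM in controls and 41.9 and 28.7 CPM with IAA. Each IAA library was below the control of its own library type and replicate number, but the low stranded control made the groups overlap. The log2 change was -0.78 (SE 0.18) with an adjusted p of 0.0585, so Polr2c was not called there. Libraries of the same number deviated together in that line, and with the replicate number as a block the change was -0.77 (SE 0.06) with an adjusted p of 4.74e-06. That blocked fit called 4.91% of all genes lower and 9.43% higher. Without stranded control replicate 2, the change was -0.89 and passed.

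Dok4, on the other strand, overlaps 60.6% of the Polr2c gene body. Its own level in YF-AA cells was 10 and 9 CPM in controls, 6.08 and 7.73 CPM at 2 h, and 5.06 and 4.13 CPM at 4 h. Whether strand was used in counting is not stated, so reads of the overlap may be shared, and the part of Dok4 in these values was not tested. In CTCF-AID controls Dok4 had 16.5 and 19.6 CPM in the unstranded and 5.4 and 2.01 CPM in the stranded libraries, and with IAA 13.7 and 15.2 CPM and 7.2 and 2.5 CPM. It was thus lower in every stranded library than in any unstranded one. In the ΔN/ΔC libraries, titled stranded, Dok4 lay between 2.08 and 3.18 CPM in every library of that line, in which Polr2c was also lower after AGB1.

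Polr3a (chromosome 14, 24448696 to 24487052, minus strand, 31 exons) fell by a similar factor in each line. In YF-AA cells it had 104 and 98.2 CPM in the controls, 56.4 and 53 CPM at 2 h, and 50.8 and 52.7 CPM at 4 h. In CTCF-AID cells it had 103 CPM in both unstranded controls and 120 and 118 CPM in the stranded ones, against 60.7, 55.2, 71.9 and 64.3 CPM in the IAA libraries. Treated libraries all lay below the controls for 20% of all genes in YF-AA at 2 h, 20.8% at 4 h and 3.81% in CTCF-AID cells. For Polr3a this held in both lines. The folds were 1.85 at 2 h (adjusted p = 3.57e-17), 1.94 at 4 h (1.3e-12), and 1.77 in CTCF-AID cells (log2 -0.82, SE 0.07, adjusted p = 0.000677). Rps24, a ribosomal protein gene that starts 73 bases away on the other strand, changed by log2 -0.10 in CTCF-AID cells, -0.01 in YF-AA at 2 h and -0.04 at 4 h, and was called in none of these.

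Polr2j (chromosome 5, 136116631 to 136122947, plus strand, 4 exons) fell less and with wider error. In YF-AA cells it had 42 and 38.6 CPM in the controls, 26 and 31.4 CPM at 2 h, and 26.2 and 30.1 CPM at 4 h. In CTCF-AID cells it had 42.7 and 42.3 CPM in unstranded and 36.6 and 29.5 CPM in stranded controls, against 23.1, 30.7, 19.5 and 24 CPM with IAA. The groups were separate in YF-AA cells, as for 20% of all genes in this direction at 2 h and 20.8% at 4 h. In CTCF-AID cells the groups overlapped at 1 library. The changes were -0.45 at 2 h (SE 0.14, adjusted p = 0.0376), -0.50 at 4 h (SE 0.13, adjusted p = 0.00926) and -0.63 in CTCF-AID cells (SE 0.13, adjusted p = 0.0341). The call was lost at 2 h without either control library (-0.40 and -0.53) or without treated replicate 1 (-0.34), and at 4 h without treated replicate 1 (-0.41). In CTCF-AID cells it was lost in 6 of the 8 fits that left out 1 library, where the changes ran from -0.71 to -0.55. With all libraries and the replicate number as a block, the CTCF-AID change was -0.62 (SE 0.10, adjusted p = 0.000824).

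**Figure D2:**
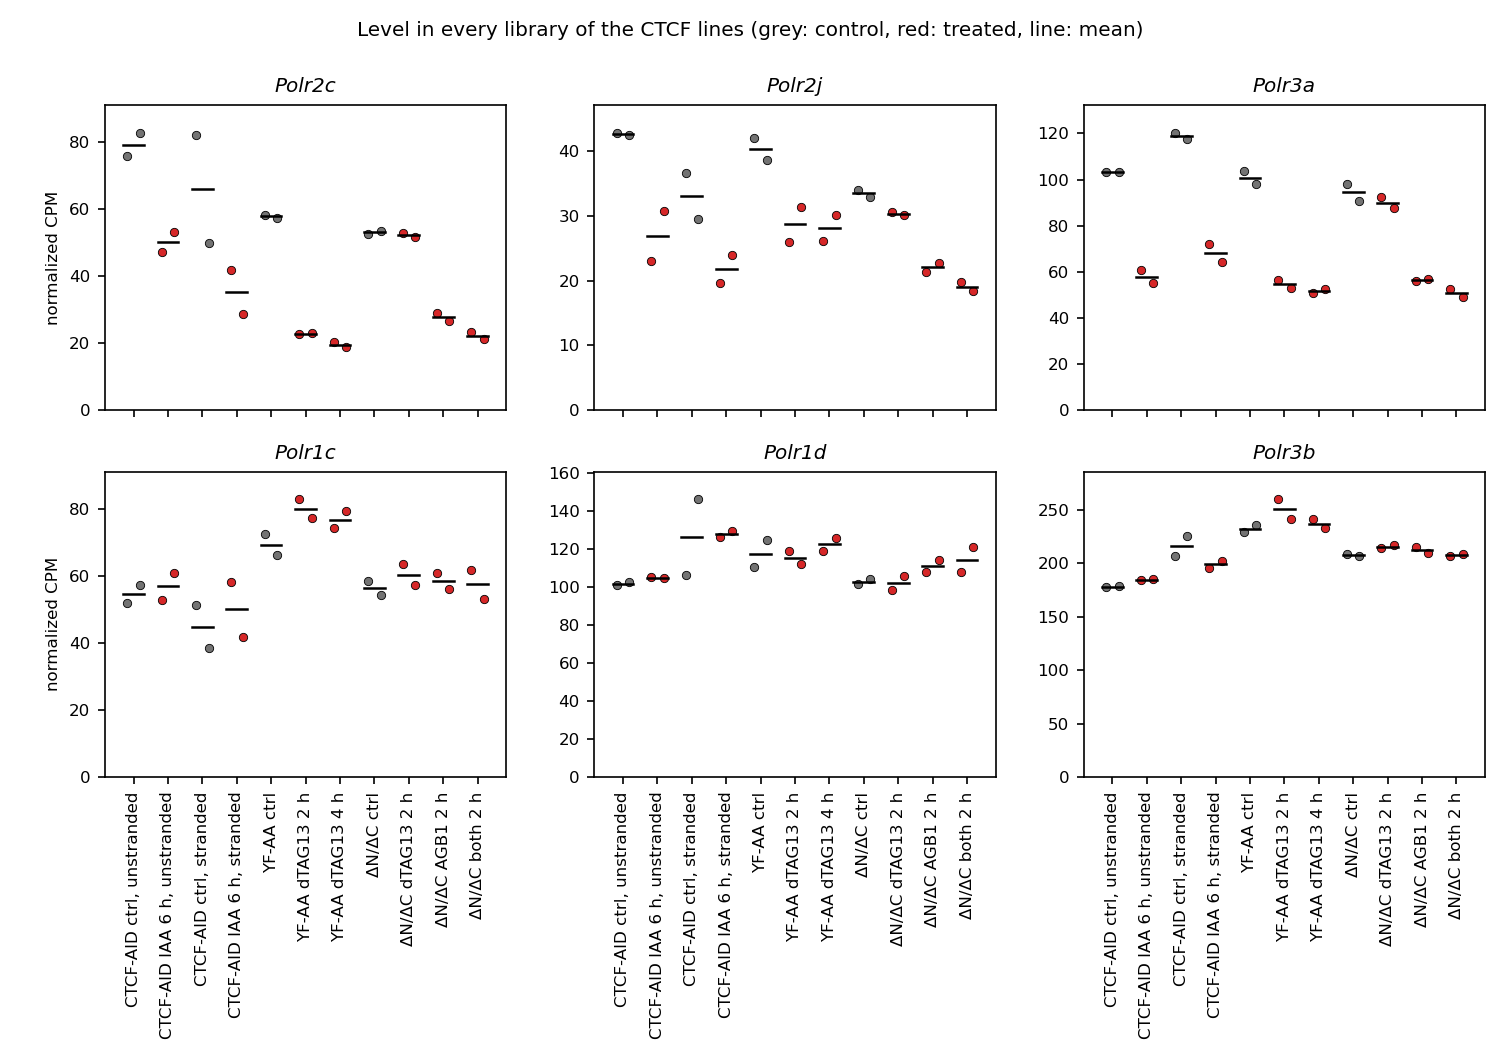
Normalized CPM (vertical axis, from 0) of every library of the CTCF-AID, YF-AA and ΔN/ΔC lines for Polr2c, Polr2j, Polr3a, Polr1c, Polr1d and Polr3b; controls are grey, treated libraries red, and bars are group means. Polr2c, Polr2j and Polr3a drop in the depleted groups except ΔN/ΔC with dTAG13 alone, whereas Polr1c, Polr1d and Polr3b stay near their controls.

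In the ΔN/ΔC line the response of these 3 genes followed removal of the ΔN protein. With AGB1, Polr2c, Polr2j and Polr3a were called lower and no member higher (1.03% and 0.426% of 13619 genes). With dTAG13 alone no member was called in either direction (0% lower and 0.0587% higher of 13618 genes). There edgeR gave 2 members and 530 genes at an unadjusted p under 0.05, and DESeq2 0 members and 80 genes. Summed mESC markers were 4380 to 4540 TPM in controls, 4290 to 4310 TPM with AGB1, 4480 to 4490 TPM with dTAG13 and 3920 to 3990 TPM with both. With AGB1 and dTAG13 together the same 3 members were lower and none higher (2.62% and 0.909% of 13753 genes). Polr2c had 52.6 and 53.7 CPM in controls, 29.2 and 26.7 CPM with AGB1, 53 and 51.8 CPM with dTAG13, and 23.3 and 21.3 CPM with both. The dTAG13 libraries sat near the controls, and the other treated libraries were far below. Treated libraries lay below the controls, by any margin, for 19% of all genes with AGB1 and 24.3% with both. Its changes were -0.93 (SE 0.09, adjusted p = 1.34e-08), -0.02 (95% interval -0.19 to 0.15, adjusted p = 0.999) and -1.25 (SE 0.10, adjusted p = 1.59e-12).

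Polr3a behaved alike, with 98.2 and 90.6 CPM in controls, 55.9 and 56.8 CPM with AGB1, 92.3 and 87.5 CPM with dTAG13, and 52.5 and 49.3 CPM with both. The changes were -0.74 (SE 0.07, adjusted p = 6.47e-09), -0.07 (95% interval -0.21 to 0.07) and -0.89 (SE 0.07, adjusted p = 1.03e-11). Only the AGB1 and combined libraries fell outside the control range by a wide margin. Polr2j had 34 and 32.8 CPM in controls, 21.3 and 22.8 CPM with AGB1, 30.5 and 30.1 CPM with dTAG13, and 19.7 and 18.3 CPM with both. Its changes were -0.60 (SE 0.11, adjusted p = 0.000491), -0.14 (95% interval -0.35 to 0.07) and -0.81 (SE 0.11, adjusted p = 1.82e-06). Both dTAG13 libraries of Polr2j were below both controls, as for 15.4% of all genes, and the difference missed the threshold.

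Set directly against dTAG13, AGB1 lowered the same 3 members and raised none (0.936% and 0.344% of 13678 genes). The differences were -0.91 for Polr2c (adjusted p = 6.1e-06), -0.67 for Polr3a (7.69e-06) and -0.46 for Polr2j (0.0253), the last lost without either AGB1 library (-0.41 and -0.51). Adding dTAG13 to AGB1 called no member in either direction (0.167% lower and 0.0509% higher of 13764 genes). The added change was -0.31 for Polr2c (95% interval -0.53 to -0.09, adjusted p = 0.185), -0.20 for Polr2j (-0.44 to 0.03) and -0.14 for Polr3a (-0.29 to 0.01).

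Counterparts of these subunits in the other enzymes, and further Pol II and Pol III subunits given below, were called in no CTCF comparison. Polr1c and Polr1d encode the subunits that take the place of RPB3 and RPB11 in Pol I and Pol III. Polr1c changed by 0.10 in CTCF-AID cells, 0.22 and 0.17 in YF-AA cells at 2 and 4 h, and 0.05 with AGB1, and was called in none. Polr1d changed by 0.03, -0.05, 0.04 and 0.11 in the same comparisons, again uncalled. Polr3b, which forms the Pol III active centre together with POLR3A, changed by -0.04, 0.10, 0.02 and 0.03. Polr2a and Polr2b, the large Pol II subunits, lay between -0.15 and 0.15 in all CTCF comparisons. Polr2i, a small Pol II subunit, changed by -0.52 in YF-AA at 4 h (SE 0.20) without passing (adjusted p = 0.162).

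Med14, the scaffold that joins the Mediator modules, was the only member called higher after loss of CTCF, in YF-AA cells at 4 h. It had 57.8 and 60.3 CPM in controls, 67.8 and 73.9 CPM at 2 h, and 90.5 and 80.8 CPM at 4 h. All treated libraries were above the controls, as for 21.6% of all genes at 2 h and 23.8% at 4 h. The 4 h pair of Med14 was above its 2 h pair. The change was 0.27 at 2 h (adjusted p = 0.149) and 0.52 at 4 h (SE 0.09, adjusted p = 2.5e-05). In CTCF-AID cells it was 0.33 (SE 0.14, adjusted p = 0.28), with 0.43 in the unstranded libraries alone (adjusted p = 0.0278) and 0.24 in the stranded ones. With the replicate number as a block the CTCF-AID change was 0.33 (SE 0.06, adjusted p = 0.00231), still under the fold limit. In ΔN/ΔC cells it was 0.06 with AGB1 and 0.11 with both compounds.

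Med20 shares a start region with Bysl. Bysl, a ribosome-assembly gene that starts 90 bases away on the other strand, was chosen for mention after its values were seen. It fell with loss of CTCF by log2 -1.13 in CTCF-AID cells, -0.77 and -0.86 in YF-AA cells at 2 and 4 h, and -0.89 with AGB1, while Med20, of the Mediator head, changed by -0.18, -0.02, 0.01 and -0.07 and was called in none. With the replicate block its CTCF-AID change was -0.17 (adjusted p = 0.0404), under the fold limit. The difference between the genes was not tested. Gm20517 overlaps 99.9% of Med20 on the same strand, and reads may be shared.

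Depletion of RAD21 in mESCs moved no member by 1.3-fold in the set of 12 against 12 libraries, where the call took in 4.84% of 15732 genes as lower and 7.44% as higher. The precision was high, with a median SE of 0.03 over the members, and the changes ran from -0.31 to 0.27. At an adjusted p under 0.05 with no bound on fold, 18 members were lower and 13 higher, where 25.7% of all genes were lower and 33% higher. The median over the members was -0.02, against 0.03 over all genes tested. Replicate 1 of each group carries another code in its library name than the rest, and without that pair no member was called either, with Med13l at -0.31 and Polr2c at 0.15. The summed level of the mESC markers was also lower, going from 4700 to 5160 TPM in the controls to 4010 to 4290 TPM with IAA, and in the first experiment from 4090 to 4120 TPM to 3130 to 3190 TPM. The part of this in the members' changes was not tested.

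Med13l, the MED13 paralogue of the kinase module, came nearest to the fold limit. It had 370, 390 and 421 CPM (lowest, median, highest) in the 12 controls and 300, 315 and 334 CPM with IAA. The groups did not overlap, which held for 2 members, Med13l and, by a small gap, Polr3b (log2 -0.14), and for 7.32% of all genes in this direction. Med13l changed by -0.31 (SE 0.02, adjusted p = 1.34e-19), and by -0.30 (adjusted p = 0.0035) in the first experiment of 2 against 2. Polr1b, of Pol I, had 140, 157 and 162 CPM in controls and 124, 136 and 146 CPM with IAA, so the groups overlapped. Its change was -0.21 (SE 0.02, adjusted p = 7.9e-12), but -0.03 (SE 0.08) in the first experiment.

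The members lowered by loss of CTCF stayed within 0.15 of control here. Polr2c had 50.2, 53.2 and 59.7 CPM in controls and 55.4, 59 and 63.7 CPM with IAA, and its change was small and upward, 0.15 (95% interval 0.09 to 0.20, adjusted p = 6.58e-06). Polr3a had 106, 116 and 120 CPM in controls and 101, 110 and 114 CPM with IAA, a change of -0.07 (-0.12 to -0.03, adjusted p = 0.00416). Polr2j had 37.1, 39.3 and 42.5 CPM in controls and 33.9, 38.9 and 40.6 CPM with IAA, a change of -0.04 (-0.10 to 0.02, adjusted p = 0.29). Among members with higher levels, Polr3gl had the largest value, 0.27 (SE 0.07, adjusted p = 0.000884), at only 5.71 to 8.8 CPM in controls.

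The first experiment called 1 member, Med16 of the Mediator tail, higher and none lower (2.16% and 2.61% of 15177 genes). Med16 had 14.9 and 14.2 CPM in controls and 23.7 and 19.8 CPM with IAA, a change of 0.58 (SE 0.14, adjusted p = 0.000848). Both treated libraries were above both controls, as for 25% of all genes. Without treated replicate 1 the change was 0.44 and not called, DESeq2 did not call it (0.58), and in the set of 12 against 12 it was 0.09 (SE 0.03), with 22.9 CPM as the median of controls and 24.4 CPM with IAA.

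**Figure D3:**
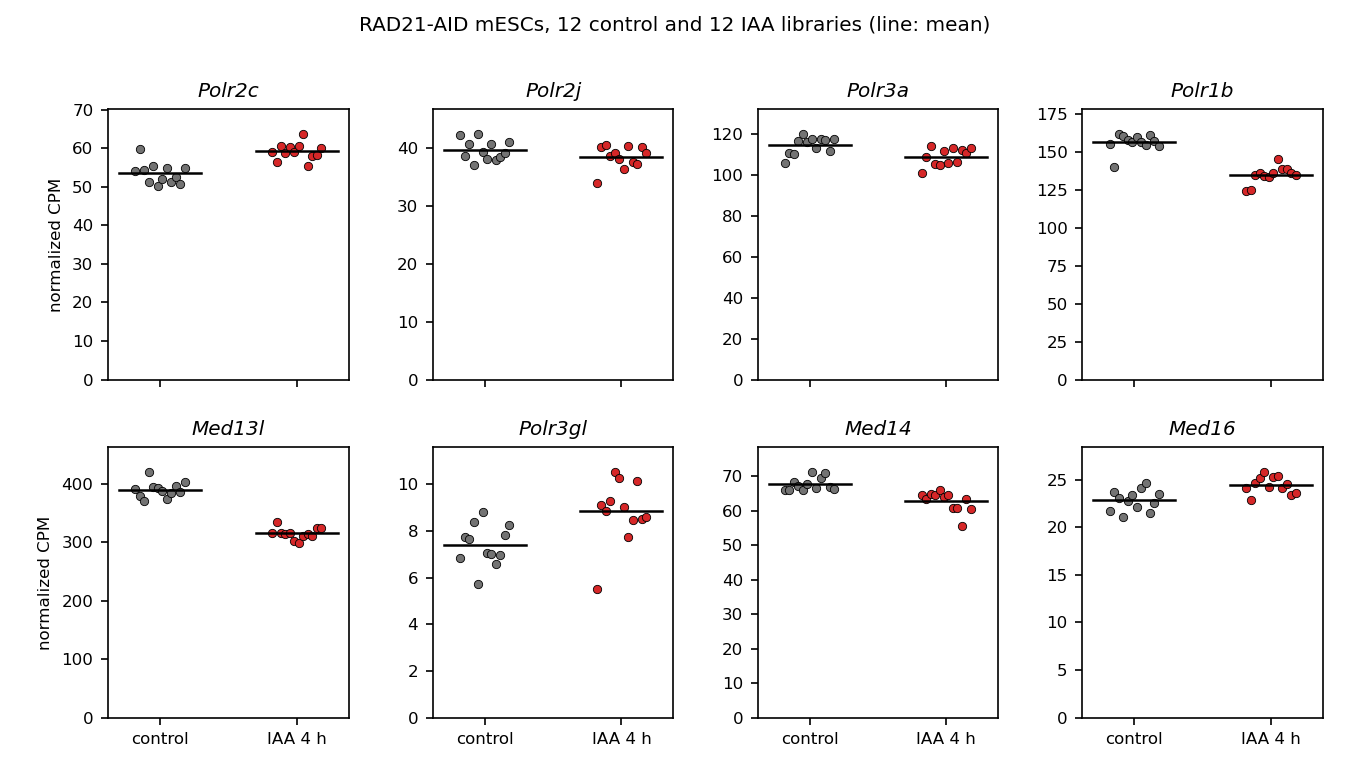
Normalized CPM of 12 control and 12 IAA (4 h) libraries of RAD21-AID mESCs for 8 members, each point a library and each bar a group mean. Med13l separates fully (370 to 421 against 300 to 334 CPM), whereas Polr2c, Polr2j and Polr3a overlap between the groups.

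The treatment effect in CTCF-AID cells was then compared with that in the 12 against 12 RAD21-AID libraries in 1 fit with an interaction of treatment and line. Polr2c, Polr2j and Polr3a were lower and Med14 higher in this difference, where 6.44% of all genes were lower and 7.45% higher. The line, the time of IAA (6 against 4 h) and the experiment differ together and cannot be told apart. For Polr2c the difference was -0.93 (SE 0.11, adjusted p = 4.45e-08), for Polr3a -0.75 (SE 0.05, adjusted p = 1.26e-13), for Polr2j -0.58 (SE 0.08, adjusted p = 1.66e-06), and for Med14 0.44 (SE 0.08, adjusted p = 0.000152). The fit takes a single error estimate per gene over the libraries of both lines. Its median SE over the members, 0.07, was thus below the 0.11 of CTCF-AID cells alone. These p-values therefore do not measure the spread of the CTCF-AID libraries by themselves. The Med14 call was lost without stranded control replicate 1 of the CTCF-AID line (0.36).

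**Figure D4:**
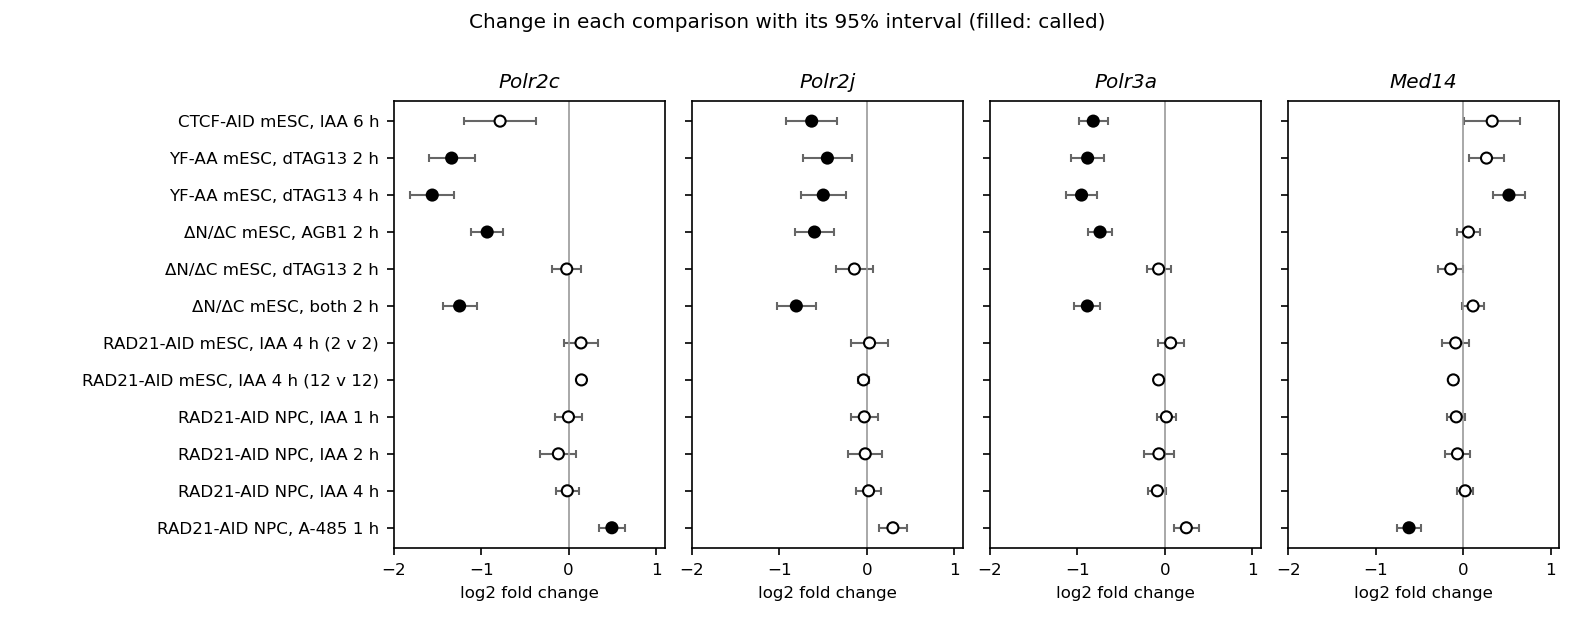
Log2 fold change (points) with 95% intervals (lines) of Polr2c, Polr2j, Polr3a and Med14 in the 12 comparisons of treated with control libraries, filled where the gene was called. Polr2c runs from -1.56 in YF-AA at 4 h to 0.49 with A-485, and Med14 from -0.62 with A-485 to 0.52 in YF-AA at 4 h.

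In NPCs, cohesin loss changed few members, and other ones than loss of CTCF had in mESCs. No member was called at 1 h (3.09% of 15860 genes lower, 2.31% higher), where edgeR gave 7 members and 4690 genes at an unadjusted p under 0.05 and DESeq2 0 members and 2561 genes. Med12l was called lower at 2 h (7.46% lower and 2.15% higher of 15995 genes). At 4 h Polr1b was lower and Med22 and Polr2l higher (10.7% and 5.94% of 16148 genes). The 3 IAA times share their control libraries, although those of 1 h were counted over the first 90 kb. The shares of members called lower, 0, 1 and 1 of 58, were below those of all genes.

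Polr1b had 34 and 36.2 CPM in controls, 30 and 30.8 CPM at 2 h, and 23.6 and 24.7 CPM at 4 h. All treated libraries were below the controls, as for 36.5% of all genes at 2 h and 38.2% at 4 h. The 4 h pair of Polr1b was the lowest. The change at 4 h was -0.54 (SE 0.07, adjusted p = 5.12e-07), a 1.45-fold fall. Polr1a, the largest Pol I subunit, changed by -0.29 at 4 h (adjusted p = 6.12e-06), under the fold limit. Med12l had 71 and 67.2 CPM in controls, 54.4 and 49.1 CPM at 2 h, and 52.5 and 55.5 CPM at 4 h. Its change was -0.41 at 2 h (SE 0.08, adjusted p = 0.00383) and -0.35 at 4 h (SE 0.05, adjusted p = 3.12e-06), so it crossed the 1.3-fold limit at 2 h only. The 2 h call was lost without control replicate 1 (-0.37), without treated replicate 2 (-0.33) and without centring (-0.36). P2ry12 and P2ry14 lie within Med12l on the other strand and cover 14.9% and 12.7% of it.

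Polr2l, a small subunit shared by all 3 enzymes, had 14.1 and 11.4 CPM in controls, 13.9 and 12.3 CPM at 2 h, and 17.8 and 19.4 CPM at 4 h. It stood above the controls at 4 h alone, where 29.5% of all genes did so. Its change at 4 h was 0.54 (SE 0.11, adjusted p = 0.00014). Med22, of the Mediator head, had 25.6 and 23.5 CPM in controls, 30.8 and 27.9 CPM at 2 h, and 31.2 and 32.8 CPM at 4 h, a change at 4 h of 0.38 (SE 0.08, adjusted p = 0.000147). That call was lost without control replicate 2 (0.32) or treated replicate 2 (0.34). Polr3gl had 20 and 22.7 CPM in controls, 26.9 and 28.2 CPM at 2 h, and 26.7 and 28.9 CPM at 4 h, with changes of 0.36 (adjusted p = 0.0347) and 0.38 (adjusted p = 0.000526) that stayed just under 1.3-fold. Without the centring step, which moved the 4 h values by 0.03, Med10, Polr3gl and Polr3k passed as well. Polr2c changed by -0.02 at 4 h (95% interval -0.15 to 0.12) and Polr3a by -0.09 (-0.19 to 0.02).

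Comparing the 4 h effect in NPCs with that in the 12 against 12 mESC libraries in 1 fit, Med12l was lower and Med22 and Polr2l higher in NPCs (12.3% and 6.47% of 17538 genes). The differences were -0.52 for Med12l (SE 0.08, adjusted p = 1.88e-07), 0.41 for Med22 (SE 0.10, adjusted p = 0.000655) and 0.57 for Polr2l (SE 0.13, adjusted p = 0.000287). In that fit Med12l changed by -0.35 in NPCs and 0.17 in mESCs, Med22 by 0.38 and -0.03, and Polr2l by 0.54 and -0.03. Med22 lost its call without NPC control replicate 2 (0.35) or treated replicate 2 (0.37). Cell type and library code cannot be told apart here.

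Inhibition of CBP and p300 by A-485 moved more members than any degron. After 1 h in NPCs, 5 members were called lower and 15 higher, where 34.2% of 16009 genes were lower by the same call and 10.6% higher. The median over the members was 0.17, and over all genes tested -0.11. Scaling matters in this comparison: centring on expressed genes moved the values by 0.12, and without it 4 members were lower and 22 higher, and 4820 genes lower and 2914 higher in place of 5474 and 1698. Summed NPC markers were 1270 to 1440 TPM in the controls and 561 to 715 TPM with A-485. Summed neuronal markers went from 56.8 to 56.9 TPM in controls to 43.5 to 47.1 TPM. The part of this change in the members' values was not tested.

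Of the 5 lower members, 2 belong to the kinase module and 1 is a Pol III paralogue. Med12l had 25.9 and 27.6 CPM in controls (first 90 kb) and 11.4 and 9.93 CPM with A-485, the largest fall of any member, -1.33 (SE 0.12, adjusted p = 4.44e-08), a 2.51-fold fall. Med12 had 42.7 and 42.1 CPM in controls and 49.1 and 49.2 CPM with A-485, a change of 0.21 (SE 0.07, adjusted p = 0.0167) under the fold limit. For neither gene did the groups overlap, as for 49.1% of all genes with A-485 below the controls and 32.6% above them.

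Med13l had 193 and 201 CPM in controls and 109 and 101 CPM with A-485, a change of -0.91 (SE 0.06, adjusted p = 2.92e-09). Med13 had 543 and 510 CPM in controls and 436 and 409 CPM with A-485, a change of -0.32 (SE 0.07, adjusted p = 0.000497) that fell short of 1.3-fold. Both paralogues were lower in every treated library, as were 49.1% of all genes. In the Pol III pair, Polr3gl had 24.7 and 27.9 CPM in controls and 14.8 and 17.3 CPM with A-485 (-0.71, SE 0.11, adjusted p = 4.47e-05). Polr3g had 26.8 and 24 CPM in controls and 28 and 28.8 CPM with A-485 (0.16, 95% interval -0.04 to 0.36). Differences between paralogues were not tested. Polr3gl is the member of its pair with the higher TPM in NPC controls, and Med12l and Med13l are those with the lower TPM.

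Med14 had 146 and 135 CPM in controls and 93.1 and 90.1 CPM with A-485, a change of -0.62 (SE 0.06, adjusted p = 4.58e-07) and the opposite direction to that in YF-AA mESCs. Polr2l had 17.4 and 14.1 CPM in controls and 13.1 and 9.98 CPM with A-485, a change of -0.45 (SE 0.15, adjusted p = 0.0175). This low gene lost its call without control replicate 1 (-0.28), without A-485 replicate 2 (-0.25), in DESeq2 (-0.45) and without centring (-0.32).

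The members that rose came from nearly every module. Polr3k, the small Pol III subunit linked to termination, rose most, from 20.2 CPM in both controls to 34.7 and 35.3 CPM (0.79, SE 0.09, adjusted p = 1.13e-06). Med30, of the Mediator head, rose from 27.2 and 25 CPM to 38 and 41.9 CPM (0.62, SE 0.09, adjusted p = 1.72e-05). In both genes the treated libraries were above all controls. The other 13 rose by 0.40 to 0.50: Med10, Med17, Med18, Med19, Med22, Med27 and Med31 of Mediator, Polr1b of Pol I, Polr1c of Pol I and Pol III, Polr2c, Polr2d and Polr2g of Pol II, and Polr2f, shared by all 3 enzymes. Gm26819 overlaps 98.7% of Med10, and its reads may be shared. By role, 4 of 8 head genes, 3 of 10 middle genes, 1 of 8 tail genes and 3 of 8 Pol II-specific genes were called higher, and 1 of 10 Pol III-specific genes. Med31 lost its call without control replicate 1 or A-485 replicate 1 (0.34 and 0.33) and Med22 without control replicate 2 (0.35). A rise here is relative to the centred genes.

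The members lowered by loss of CTCF in mESCs were not lower with A-485 in NPCs. For mESCs, the paper lists Polr2c and Polr3a among common essential genes lowered by CTCF-AID and YF-AA depletion but not by A-485. Polr2c had 50.3 and 50.9 CPM in controls and 73.9 and 68.8 CPM with A-485 (0.49, SE 0.07, adjusted p = 1.23e-05). Polr2j changed by 0.30 (adjusted p = 0.00269) and Polr3a by 0.24 (adjusted p = 0.00518), both under the fold limit. In both, the treated libraries were above the controls, as for 32.6% of all genes. Set against the IAA 1 h libraries, A-485 called 5 members lower and 14 higher (32.4% and 11.8% of 15882 genes), and the 5 lower were again Med12l, Med13l, Med14, Polr2l and Polr3gl. The largest difference was -1.15 for Med12l (SE 0.12, adjusted p = 2.77e-06) and the next -0.95 for Polr3gl (SE 0.11, adjusted p = 5.8e-06). IAA for 1 h itself left Med12l at 23.7 and 23.6 CPM (-0.18, adjusted p = 0.192) and Polr3gl at 31 and 31.4 CPM (0.24, adjusted p = 0.0612).

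**Figure D5:**
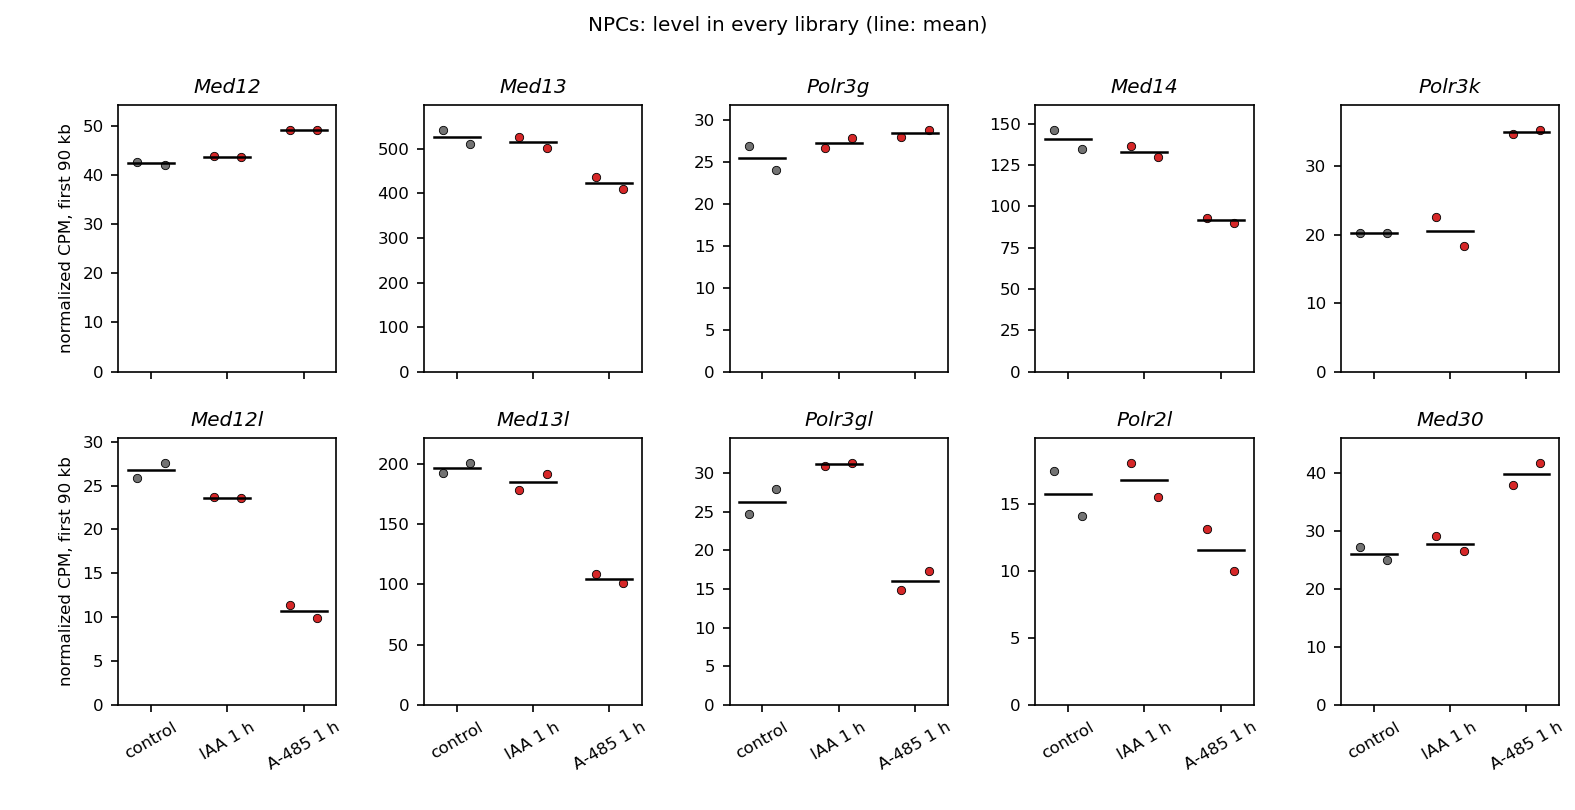
Normalized CPM in the first 90 kb of the gene in 2 control, 2 IAA (1 h) and 2 A-485 (1 h) libraries of RAD21-AID NPCs for 10 members, each point a library and each bar a group mean. Med12l, Med13l, Polr3gl and Med14 fall with A-485, Polr3k and Med30 rise, and the IAA libraries stay nearer to the controls.

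The 72 related genes, which are the other Pol I subunits, the general transcription factors, the Pol III factors, assembly partners, the kinase module partners and the mitochondrial polymerase, were all tested in each of the 12 comparisons. None was called after CTCF-AID depletion, with AGB1, with dTAG13 alone or in NPCs at 1 or 2 h. Taf1c, of the Pol I initiation factor SL1, was the only related gene called lower in YF-AA cells (-0.66 at 2 h, adjusted p = 0.0167, and -0.76 at 4 h, adjusted p = 0.0033) and with AGB1 and dTAG13 together (-0.66, adjusted p = 0.0025), and none was higher there. Its YF-AA libraries had 28 and 20.4 CPM in controls, 20.8 and 10.8 CPM at 2 h, and 14.6 and 13 CPM at 4 h, and those of 2 h overlapped the controls. In CTCF-AID cells Taf1c changed by -0.05.

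RAD21 loss in mESCs lowered Rrn3, the factor that recruits Pol I, in the 12 against 12 libraries (-0.40, SE 0.02, adjusted p = 1.16e-24), with 307 to 323 CPM in controls and 221 to 253 CPM with IAA. In the first experiment Rrn3 changed by -0.24 and Gtf3c6, of TFIIIC, was called higher (0.39, adjusted p = 0.00495). In NPCs at 4 h, where 10.7% of all genes were lower and 5.94% higher, 2 related genes were lower, Gtf2f2 of TFIIF (-0.49) and Taf1d of SL1 (-0.41), and 2 higher, the Pol III repressor Maf1 (0.45) and Gtf3a, which encodes TFIIIA (0.40). With A-485, 4 were lower and 16 higher, where 34.2% of all genes were lower and 10.6% higher. Ubtf, the Pol I factor UBF, fell by 1.07 on the log2 scale (adjusted p = 6.06e-10), from 218 ± 12.6 CPM (SD, n = 2) in controls to 104 ± 4.5 CPM (n = 2), and Cdk8, the kinase of the Mediator kinase module, by 0.47 (adjusted p = 4.51e-06). Its cyclin Ccnc rose by 0.41 (adjusted p = 0.000129). Of the 10 TFIIH genes 5 rose and none fell, led by the helicases Ercc2 (0.80, adjusted p = 3.35e-07) and Ercc3 (0.54) and by Gtf2h4 (0.52). Of the 15 TFIID genes Taf13 (0.68), Taf12 (0.63) and Taf3 (0.55) rose and Taf10 fell by 0.68 on the log2 scale. Among the 7 genes of TFIIA, TFIIB, TFIIE and TFIIF, Gtf2f1 (0.82) and Gtf2b (0.50) rose and Gtf2a1 fell by 0.53. Single higher genes were Taf1c (0.77) of SL1, Gtf3a (0.58), and Polrmt (0.56), the mitochondrial RNA polymerase, and of the assembly partners Rpap3 (0.75) and Gpn1 (0.49). The median over the 72 related genes was 0.16.

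Counted over the 12 comparisons of treated with control libraries, 35 of the 58 members were called in none. In Mediator these were Med6, Med8, Med11 and Med20 of the head, with changes between -0.29 and 0.28, Med1, Med4, Med7, Med9, Med21 and Med26 of the middle, between -0.27 and 0.36, and Med15, Med23, Med24, Med25, Med28 and Med29 of the tail, between -0.24 and 0.37. Med12 ran from -0.16 to 0.25 and Med13 from -0.32 to 0.18. The narrowest range in the tail was that of Med24, -0.11 to 0.12.

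In the polymerases they were Polr1a and Polr1e of Pol I, between -0.29 and 0.15, and Polr1d, between -0.06 and 0.15. Of Pol II they were Polr2a, Polr2b, Polr2i and Polr2m, and of the subunits common to all 3 enzymes Polr2e, Polr2h and Polr2k, between -0.31 and 0.34. Polr2a, the catalytic subunit of Pol II, ran from -0.10 to 0.15 and Polr2i from -0.52 to 0.24. Of Pol III they included Polr3b, Polr3c, Polr3d, Polr3e, Polr3f and Polr3g, between -0.30 and 0.24.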

How the data were processed

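EU-seq counts were analysed in 60 libraries. Per the methods, the authors trimmed reads with cutadapt, aligned them to mm10 with BWA, dropped low-quality alignments with SAMtools 1.4 and ribosomal and tRNA reads with BEDTools, and deposited counts over the gene body of 1 representative transcript per gene. Strand use in counting is not given in the sources used here. Of 27665 rows, 27455 matched GENCODE M21 names. Unmatched rows stayed in the fits without names.

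Counts were fitted with edgeR 4.0.16 (R 4.3.3), TMM and the quasi-likelihood F test, after a filter on a mean count above 20 in at least 1 group. Offsets were shifted so that the median log2 change of expressed genes, those above 15 TPM over the gene body, was 0. P-values were adjusted by Benjamini-Hochberg over all genes tested. Calls required both 1.3-fold or more and an adjusted p below 0.05. Library type was a covariate in CTCF-AID. There, libraries of the same replicate number deviated together (4 pairs, r = 0.61 to 0.849), which pairs them. The blocked value is printed for Polr2c, whose call it changes, and for Polr2j, Med14 and Med20. The scripts were tested on simulated data. DESeq2 1.42.0, no filter, no centring, other fold limits and leaving out each library of small groups were tried as alternatives. The members and lists were chosen with earlier results of these data known. Every member called in a comparison of treated with control libraries is named, the others by range except 1 that is not reported here, and of each related list the 3 largest called changes. Neighbours were added after their values were seen. Polr3a has no promoter in the table used.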

Additional observations from a re-analysis of the deposited data

Results flagged for a closer look

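The effect of CTCF-AID depletion differed from that of RAD21-AID depletion in mESCs, by the interaction of treatment and line in edgeR's quasi-likelihood test, for Polr2c (log2 difference -0.93, -0.78 against 0.15), Polr2j (-0.58, -0.62 against -0.04), Polr3a (-0.75, -0.82 against -0.07) and Med14 (0.44, 0.33 against -0.11). By the same call, 6.44% of all genes were lower and 7.45% higher in this difference. Line, time and experiment differ together, and the error estimate of each gene pools both lines. The Med14 call was lost without stranded control replicate 1 of the CTCF-AID line.

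The 4 h effect of RAD21-AID depletion differed between NPCs and mESCs for Med12l (-0.52, -0.35 against 0.17), Med22 (0.41, 0.38 against -0.03) and Polr2l (0.57, 0.54 against -0.03). By the same call, 12.3% of all genes were lower and 6.47% higher in this difference. Cell type and library code cannot be told apart, and Med22 lost its call without NPC control replicate 2 or treated replicate 2.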

How the results depend on the processing

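Of 667 values of named members under another setting, 578 kept their direction and their side of the threshold, 84 fell below it, 5 rose past it and 0 changed sign. Of 159 member counts under another setting, 127 stayed within 1.5 times the reported count. In CTCF-AID cells, 2 members became 4 in the unstranded libraries alone, 0 in the stranded ones, 0 at 2-fold, and 1 to 3 with 1 library left out. In the unstranded libraries alone 457 of 16115 genes were lower and 670 higher, and in the stranded ones 0 and 0. At 2-fold, 1 member remained called in YF-AA at 2 h, 1 at 4 h, 0 with AGB1 and 1 with both compounds. In the first RAD21 experiment 0 remained, in NPCs 0 at 2 h, 0 at 4 h and 1 with A-485. Those left were lower, where 0.657%, 0.791%, 0.633% and 20.2% of all genes were lower by 2-fold in the same order. With no bound on fold the counts were 5 with both compounds, 2 in the first RAD21 experiment and 31 in the 12 against 12 libraries. All genes were then 4.71% lower and 1.99% higher, 5.16% and 3.49%, and 25.7% and 33%. In NPCs the counts were 1, 5 and 19 at 1, 2 and 4 h, and 34 with A-485. There the shares of all genes were 10.2% lower and 6.94% higher, 11.6% and 3.82%, 24.5% and 15.4%, and 41.1% and 21.5%. Med16 was lost in DESeq2, which left 0 members in the first RAD21 experiment. With 1 library left out that experiment gave 0 to 1 members, NPCs at 2 h 0 to 2, NPCs at 4 h 4 to 5, and the difference of NPCs and mESCs 3 to 5. Without centring, 6 members were called in NPCs at 4 h. The causes were not tested.

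With the replicate block, CTCF-AID cells gave 3 members, YF-AA at 2 h 2 (Polr2j was lost, -0.45) and NPCs at 4 h 4. Only CTCF-AID, of the designs with 3 or more pairs, had every pair above 0.1. With 2 libraries a group the correlation was 0.195 in NPCs at 2 h and 0.126 with A-485, and between -0.0277 and 0.0422 in the other comparisons except 2. In those, the first RAD21 experiment and NPCs at 1 h, it was -0.165 and -0.13, and there a crossed block, chosen after seeing the data, called 1 and 0 members. With 2 libraries in most groups, small changes could not be resolved.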
